A study of Mus musculus with 30 samples.

Results

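The genes described here are insulin-like growth factor 1, its receptor and the members of the IGF binding protein family found in MCA-induced fibrosarcomas, that is Igf1, Igf1r, Igfbp2, Igfbp3, Igfbp4, Igfbp5, Igfbp6 and Igfbp7. They were chosen by gene symbol, through the Ensembl identifiers of the count table, with their differences between tumor lines already known, and are 8 of the 48440 genes of the table and 8 of the 16862 that passed the filter on low counts. The study asked which transcripts distinguish MCA-induced primary tumor cell lines that are controlled by NK1.1+ cells from lines that are not. RNA was sequenced from 30 tumors of 5 lines grown in C57BL/6 mice and depleted of CD45+ cells with beads. The study transplanted its lines with and without an antibody that depletes NK1.1+ cells, and defined sensitivity by that contrast. The sources used here do not say whether the sequenced tumors came from mice given the antibody. In the study MCA-943 (4 tumors) and MCA-969 (8 tumors) are non-sensitive lines, and MCA-948 (8 tumors), MCA-970 (6 tumors) and MCA-972 (4 tumors) are sensitive lines.

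Each line came from 1 primary sarcoma induced by the carcinogen 3-methylcholanthrene, so the tumors of a line are grafts of 1 primary tumor and the 5 lines stand for 5 tumors. The strain label is Ncr1Cre for MCA-943 and Ncr1Cre R26DTA for the other 4 lines. Ncr1 drives Cre in NKp46+ lymphoid cells, and the R26DTA allele makes diphtheria toxin in the cells that express Cre. The labels do not say whether this strain is that of the mouse in which the line arose or of the host. In the paper, primary tumors arose in mice of these genotypes and the derived lines were transplanted into C57BL/6 mice. The label is therefore read as the strain of the mouse of origin. Since MCA-943 alone carries the first label, strain and line cannot be told apart. Ages of the mice are not given in the sources used here. In MCA-969, the W-1D tumor and the W-2D tumor carry a sensitivity label opposite to that of the other 6. They were kept in MCA-969, and values that moved without them are given beside the result.

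Insulin-like growth factor 1 is a secreted growth and survival factor that signals through the receptor tyrosine kinase IGF1R, and from there through IRS adaptors to PI3K and AKT. Most IGF in tissue fluid is held by the binding proteins, which bind it more tightly than the receptor does, prolong its life and restrain or deliver it, and which proteases such as PAPP-A cut to set it free. Mesenchymal cells are a main source of IGF1 and of several binding proteins, and IGFBP7, a lower-affinity relative, is abundant in vascular endothelium.

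Total counts ran from 27745104 to 46537062 per tumor, so that 3 counts, the limit that a count of 0 allows, stood for 0.0645 to 0.108 CPM, the count scaled to library size. Levels are CPM with TMM scaling, given as mean ± SD, and differences between lines are log2 differences with standard errors from 1 edgeR fit over all tumors. The mesenchymal list (8 genes such as Col1a1 and Vim) was detected in full in every line, at a summed 15766 to 81912 CPM. Its sum was highest in MCA-943, as were 6 of the 8 genes, while 2 were highest in MCA-970. Endothelial genes (12 genes) summed to 30.8 to 616 CPM and were highest in MCA-970 for 10 of 12. The mean of macrophage genes was highest in MCA-970 for 11 of 12, through 2 tumors with sums of 262 and 449 CPM, while the other 4 held 27.1 to 73.2 CPM, inside the range of the other lines. Leukocyte genes were highest in MCA-943 for 10 of 10, with Ncr1 at 0 in every MCA-972 tumor. In tumor tissue, fewer cells of a type and less RNA per cell cannot be told apart. The sample descriptions carry numbers that fall into 3 runs, called library series here. MCA-972 lay in series 1, MCA-970 in series 2 and MCA-943 in series 3, whereas MCA-948 was split over series 2 and 3 and MCA-969 over series 1 and 2. In series 2 all MCA-948 tumors carry the title letter a and all MCA-969 tumors the letter W (letters are treated below). Comparisons of either line within series 2 therefore mix letter with line, and a covariate for series, which rests on these split lines, does so in part. The letters are unevenly shared in the other series too.

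Across the 5 lines, 7 of the 8 genes, all but Igfbp4, had an adjusted p under 0.05 and a largest log2 difference of at least 1. The same held for 58.0% of all genes tested, and for 94.1% without the fold threshold, when all 8 genes passed. Because the genes were taken up with these differences known, nothing is read from that count, and the levels below are a description without a test. The median of the largest log2 difference was 2.32 over the 8 genes, beside 1.19 over all genes tested.

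The ligand Igf1 was high in a non-sensitive and a sensitive line. In MCA-943 the 4 tumors held 30.9, 39.4, 45.7 and 70.9 CPM (46.7 ± 17.2, SD, n = 4), and in MCA-972 they held 27.9, 33.8, 35.6 and 62.5 CPM (40.0 ± 15.4, n = 4). MCA-948 ran from 3.04 through a median of 8.77 to 16.8 CPM, MCA-969 from 4.49 through 8.68 to 13.8 and MCA-970 from 5.63 through 10.95 to 13.6. All 8 tumors of MCA-943 and MCA-972 thus lay above all 22 others, while the last 3 lines overlapped and their means stayed within 9.02 to 10.7 CPM. MCA-943 exceeded MCA-969 by 2.37 ± 0.32 (SE) on the log2 scale. Between lines of 1 library series the log2 difference was 2.45 ± 0.42 for MCA-943 over MCA-948, against 2.26 ± 0.32 over all tumors, and MCA-969 was -2.04 ± 0.23 from MCA-972, against -2.15 ± 0.32. For MCA-948 and MCA-970 the sign turned within series 2 from -0.13 ± 0.30 to 0.39 ± 0.35. MCA-943 and MCA-969 share no series, and their difference was 3.45 ± 0.66 with series as a covariate.

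Igf1r, the receptor, was higher in both non-sensitive lines than in the sensitive ones. MCA-969 was highest, from 143 through a median of 201 to 232 CPM (193 ± 30.4, n = 8), and MCA-943 followed with 146, 152, 166 and 173 CPM (159 ± 12.1, n = 4). The sensitive lines were lower. MCA-948 ran from 80.7 through 111 to 128 CPM, MCA-972 held 66.2, 67.5, 71.1 and 72.6 CPM, and MCA-970 ran from 52.8 through 64.6 to 76.6 CPM. All 12 tumors of the non-sensitive lines, at 143 to 232 CPM, therefore lay above all 18 of the sensitive lines, at 52.8 to 128 CPM, whereas MCA-943 and MCA-969 overlapped, as did MCA-970 and MCA-972. MCA-969 exceeded MCA-970 by 3.02-fold, with an SE of 0.11 on the log2 scale, and MCA-943 exceeded MCA-948 by 0.57 ± 0.12. Each non-sensitive line can be set against each sensitive one, which makes 6 comparisons. Igf1r was the 1 of 8 genes that passed in 1 direction in all 6 when no fold threshold was set, a rule that 4.15% of all genes met. With a log2 difference of at least 1 required in each, 0 of 8 passed, beside 0.878% of all genes. Nothing is read from either count.

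Library series moved with Igf1r. The 2 MCA-969 tumors of series 2, the same 2 with the opposite sensitivity label, had the lowest values of their line at 143 and 154 CPM, and the 2 MCA-948 tumors of series 2, at 80.7 and 84.7 CPM, had the lowest of theirs. Within series 2 the order of lines did not change, since MCA-970 reached 76.6 CPM at most. There MCA-969 exceeded MCA-970 by 1.23 ± 0.12 on the log2 scale and MCA-948 exceeded it by 0.39 ± 0.13, against 0.75 ± 0.11 over all tumors. Without the 2 tumors of opposite label, MCA-969 exceeded MCA-970 by 1.71 on the log2 scale.

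**Figure D1:**
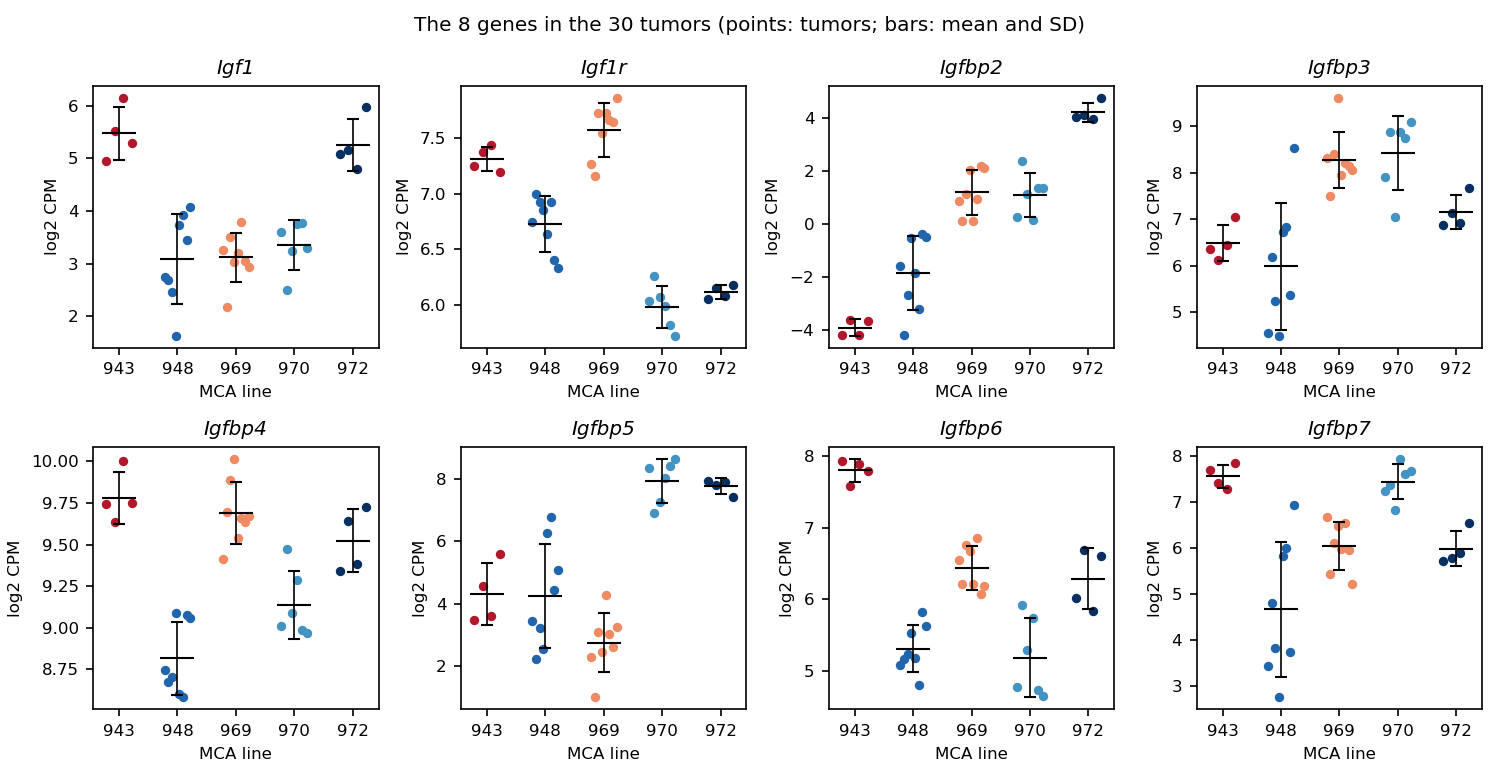
Level of each of the 8 genes by tumor line. The y axis is log2 CPM (prior count of 2), each point is 1 tumor, and the horizontal bar with whiskers gives mean and SD; line numbers are on the x axis, with MCA-943 and MCA-969 non-sensitive (red and orange) and the others sensitive (blues). Igf1 is high in MCA-943 and MCA-972, Igfbp5 in MCA-970 and MCA-972, Igf1r in MCA-943 and MCA-969, and the MCA-948 tumors spread widely for Igfbp3, Igfbp5 and Igfbp7.

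Igfbp4, an inhibitory binding protein and the substrate of PAPP-A, was the most abundant of the 8 genes per unit length in MCA-948, MCA-969 and MCA-972, at 103, 188 and 168 CPM per kb. It varied least. MCA-943 held 796, 857, 860 and 1027 CPM (885 ± 99.4, n = 4), MCA-969 ran from 681 through a median of 811 to 1033 CPM, and MCA-972 held 648, 669, 800 and 846 CPM. MCA-970 ran from 501 through 530 to 712 CPM and MCA-948 from 383 through 423 to 543 CPM (455 ± 70.5, n = 8). The lowest line, MCA-948, stood below MCA-943 by a log2 difference of 0.96 ± 0.12, and MCA-943, MCA-969 and MCA-972 overlapped. Igfbp4 also differed little among tumors of a line, with a pooled SD of 0.20 on the log2 scale that was larger than that of 33.9% of the genes tested.

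Igfbp6, which prefers IGF2 over IGF1, was set apart in 1 line. MCA-943 held 192, 223, 236 and 244 CPM (224 ± 23.2, n = 4), and there it matched Igfbp4 per unit length, at 201 and 200 CPM per kb. All 4 of those tumors exceeded every other tumor of the series, the nearest being at 116 CPM in MCA-969, which ran from 67.3 through a median of 84.0 CPM. MCA-972 held 57.4, 64.6, 97.6 and 103 CPM. MCA-948, from 27.9 through 37.1 to 56.7 CPM, and MCA-970, from 24.9 through 33.3 to 60.4 CPM, were lowest and did not differ beyond their spread (log2 difference 0.07 ± 0.20). MCA-943 exceeded MCA-970 by 2.53 ± 0.23 and MCA-948 by 2.46 ± 0.21 on the log2 scale, and by 2.59 ± 0.12 over MCA-948 within library series 3.

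Igfbp2 and Igfbp5 lie tail to tail on chromosome 1, Igfbp2 on the plus strand at chr1:72824503-72852474 and Igfbp5 on the minus strand at chr1:72857932-72874884 (GRCm38), and had the widest ranges of the 8 genes. Their promoters (RefSeq, GRCm38.p6) are shown for that reason, in the direction of transcription, at chr1:72824230-72824529 for the first start of Igfbp2 and chr1:72874816-72875115 for Igfbp5. Capitals mark matches on either strand to any of 5 motifs. These were the GC box with the letters GGGCGG, the core bound by ETS factors with the letters CCGGAA, the site of AP-1 with the letters TGACTCA, the E-box with the letters CACGTG and the TBP-binding box with the letters TATAAA.
Igfbp2: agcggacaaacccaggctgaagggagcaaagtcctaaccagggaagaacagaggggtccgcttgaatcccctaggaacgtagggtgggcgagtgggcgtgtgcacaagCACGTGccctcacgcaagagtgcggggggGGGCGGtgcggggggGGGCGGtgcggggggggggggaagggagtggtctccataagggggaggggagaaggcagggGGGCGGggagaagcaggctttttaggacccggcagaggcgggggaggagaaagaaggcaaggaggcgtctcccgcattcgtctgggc
Igfbp5: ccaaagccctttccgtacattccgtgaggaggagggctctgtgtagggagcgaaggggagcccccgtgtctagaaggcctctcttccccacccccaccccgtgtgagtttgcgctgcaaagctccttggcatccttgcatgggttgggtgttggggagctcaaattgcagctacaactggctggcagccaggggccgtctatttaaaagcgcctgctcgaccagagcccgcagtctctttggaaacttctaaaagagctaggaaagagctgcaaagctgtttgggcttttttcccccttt
The Igfbp2 window held 3 GC boxes and 1 E-box, and the Igfbp5 window held none of the 5 motifs. Over the 32851 promoters of the table, 35.7% held a GC box, 13.6% the TBP-binding box, 14.9% the ETS core, 5.202% the AP-1 site and 7.15% the E-box. The GC content was 67.0% for Igfbp2 and 56.3% for Igfbp5, beside a median of 52.7% over all promoters. The absence of a match says only that these letters are not in the window.

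Igfbp2, a binding protein of fetal tissues and of many tumors, was close to absent from 1 line and clear in another. In MCA-943 the counts were 0, 0, 1 and 1, that is 2 counts over the line, in tumors where 3 counts set the limit of detection. MCA-972 held 15.5, 16.03, 17.1 and 26.7 CPM (18.8 ± 5.30, n = 4), above every other tumor. MCA-969 ran from 1.02 through a median of 1.98 to 4.45 CPM and MCA-970 from 1.05 through 2.29 to 5.15 CPM, 2 overlapping ranges, and MCA-948 from 0 through 0.248 to 0.704 CPM. The ratio of MCA-972 to MCA-943 was 1282 with a 95% counting interval of 355 to 10594, an interval that covers counting error only. These lines share no library series, and the fitted log2 difference fell from 10.04 to 7.28 ± 1.45 with series as a covariate. The log2 difference of MCA-969 from MCA-972 was -2.88 ± 0.46 over all tumors and -2.67 ± 0.36 within library series 1. That of MCA-948 from MCA-970 was -2.87 ± 0.49, and -1.80 ± 0.62 within series 2, where the 2 MCA-948 tumors were its highest, at 0.655 and 0.704 CPM.

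Igfbp5, a binding protein of bone, muscle and fibroblasts that also attaches to matrix, had the largest difference of the well-detected members. MCA-970 ran from 120 through a median of 292 to 396 CPM (266 ± 110, n = 6), and MCA-972 held 170, 225, 241 and 247 CPM (221 ± 35.3, n = 4). MCA-943 held 10.98, 12.1, 23.6 and 48.3 CPM, MCA-948 ran from 4.68 through 16.3 to 109 CPM and MCA-969 from 1.95 through 7.05 to 19.4 CPM (7.95 ± 5.22, n = 8). All 10 tumors of MCA-970 and MCA-972 lay above the 20 others, though the gap to the highest MCA-948 tumor was narrow (119.8 against 109 CPM). The log2 difference of MCA-969 from MCA-970 was -5.06 ± 0.62 over all tumors and -6.27 ± 0.69 within series 2, and that from MCA-972 was -4.79 ± 0.64 and, within series 1, -4.54 ± 0.33. MCA-970 and MCA-972 did not differ beyond their spread (0.27 ± 0.66). Within lines Igfbp5 was the most variable of the 8 genes, with a pooled SD of 1.12 on the log2 scale, larger than that of 98.5% of the genes tested. Among tumors of a line, no relation between the neighbours Igfbp2 and Igfbp5 passed. Pearson's r was 0.07 in MCA-948, 0.06 in MCA-969 and -0.51 in MCA-970, with adjusted exact permutation p of 0.965, 0.965 and 0.726 (two-sided, n = 8, 8 and 6). Spearman's rho was 0.14, 0.24 and -0.09. Without the 2 tumors farthest from the median of Igfbp5, r in MCA-970 was 0.83 over the 4 tumors left, with an adjusted exact permutation p of 0.531.

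Igfbp3, the main carrier of IGF in serum, and Igfbp7 are treated together because each passed against endothelial genes in at least 1 line, Igfbp7 in MCA-948 and MCA-969 and Igfbp3 in MCA-948 alone of these. Igfbp3 lies on the minus strand at chr11:7206086-7213923 and Igfbp7 on the minus strand at chr5:77349240-77408041. Their RefSeq promoters, with capitals as above, are at chr11:7213874-7214173 and chr5:77407996-77408295 (GRCm38.p6).
Igfbp3: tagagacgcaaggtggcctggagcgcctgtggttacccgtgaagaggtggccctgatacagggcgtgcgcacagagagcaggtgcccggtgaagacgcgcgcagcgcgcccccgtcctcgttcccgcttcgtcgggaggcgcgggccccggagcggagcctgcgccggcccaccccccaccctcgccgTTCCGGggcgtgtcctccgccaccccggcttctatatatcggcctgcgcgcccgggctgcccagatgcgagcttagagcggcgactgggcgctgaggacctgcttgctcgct
Igfbp7: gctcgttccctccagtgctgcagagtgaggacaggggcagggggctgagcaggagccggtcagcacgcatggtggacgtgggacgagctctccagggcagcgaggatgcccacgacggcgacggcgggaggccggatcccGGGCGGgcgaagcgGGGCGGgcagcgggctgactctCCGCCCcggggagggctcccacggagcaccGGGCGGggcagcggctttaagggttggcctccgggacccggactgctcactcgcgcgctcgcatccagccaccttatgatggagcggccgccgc
The Igfbp3 window held 1 ETS core and no GC box in these letters, the Igfbp7 window held 4 GC boxes and no ETS core, and their GC contents were 71.7% and 73.3%. The 2 windows thus shared none of the 5 motifs.

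MCA-970 and MCA-969 had the most Igfbp3, from 132 through a median of 447 to 545 CPM (379 ± 159, n = 6) and from 181 through 289 to 777 CPM (338 ± 184, n = 8). MCA-972 held 117, 122, 141 and 205 CPM, MCA-943 held 70.1, 82.2, 87.3 and 132 CPM, and MCA-948 ran from 22.6 through 57.2 to 371 CPM (98.5 ± 115, n = 8). Only 2 of the 10 pairs of lines, MCA-943 with MCA-969 and with MCA-970, had ranges apart, the latter by a very narrow gap (131.6 against 131.7 CPM). MCA-970 exceeded MCA-943 by 2.03 ± 0.60 on the log2 scale. These 2 lines shared no library series, and the difference was 0.32 ± 0.82 with series as a covariate. It was 0.32 ± 0.28 with the endothelial score as a covariate, an alternative chosen after seeing the data. Within series 2, with 2 tumors of each, the log2 difference of MCA-948 from MCA-969 was -0.26 ± 0.85, against -1.78 ± 0.45 over all tumors. There the MCA-948 tumors carry the title letter a and the MCA-969 tumors W, so letter and line cannot be told apart.

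For Igfbp7, MCA-943 held 156, 170, 206 and 230 CPM (191 ± 33.8, n = 4) and MCA-970 ran from 114 through a median of 180 to 244 CPM (179 ± 45.4, n = 6), 2 lines that did not differ beyond their spread (log2 difference 0.09 ± 0.51). MCA-969 ran from 37.0 through 65.9 to 102 CPM, MCA-972 held 52.9, 54.7, 59.0 and 93.3 CPM, and MCA-948 ran from 6.66 through 20.99 to 123 CPM (39.4 ± 40.0, n = 8). All 4 MCA-943 tumors were above all 20 tumors of MCA-948, MCA-969 and MCA-972. MCA-943 exceeded MCA-948 by 2.27 ± 0.47 on the log2 scale, by 2.63 ± 0.58 within series 3 and by 3.22 with the endothelial score as a covariate. The endothelial sums of MCA-943 (73.4 to 171 CPM) lay below those of MCA-970 (292 to 616 CPM), beside overlapping levels of Igfbp7.

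Within lines, Igfbp7 tracked the endothelial list in MCA-948 and MCA-969, and Igfbp3 did so in MCA-948. The endothelial score is the mean log2 CPM of 12 genes such as Pecam1, Cdh5 and Kdr, and relations were computed in the 3 lines with at least 6 tumors, 51 in all, with two-sided exact permutation p adjusted over the 51. In MCA-948 the endothelial sum ran from 30.8 to 561 CPM, and Igfbp7 followed it with r = 0.99 (rho = 1.00, adjusted p = 0.00126 by permutation, n = 8) and Igfbp3 with r = 0.97 (rho = 0.98, adjusted p = 0.00211 by permutation, n = 8). In the tumor with the lowest endothelial sum, W-2G, Igfbp7 was 6.66 and Igfbp3 22.6 CPM, and in the tumor with the highest, a-R, they were 123 and 371 CPM. In MCA-969, where the sum ran from 95.3 to 312 CPM, Igfbp7 followed it with r = 0.99 (rho = 0.95, adjusted p = 0.00211 by permutation, n = 8), whereas Igfbp3 had r = 0.53 (rho = 0.71, adjusted p = 0.61 by permutation) and its highest tumor, W-R at 777 CPM, was not the highest in endothelial genes (259 CPM). Without the 2 tumors farthest from the median score the 3 called relations each had r = 0.98, with adjusted p of 0.0708 to 0.189 by exact permutation over 6 tumors. The smallest exact permutation p possible with 6 tumors is 0.00139, which gives 0.0708 over the 51 relations unless several reach it. These relations could therefore hardly pass, and nothing is read from the lost calls. The 6 MCA-970 tumors fell into 4 with sums of 568.4 to 616 CPM and 2 with 292 and 340 CPM. Relations in that line were among the 51 and none passed, and since the tumors formed 2 separate clusters no r is given for them here. Those 2 tumors, W-R and W-1D, had the lowest Igfbp3 of the line (132 and 239 CPM) and the lowest Igfbp7 (114 and 152 CPM). The part of endothelial cells in these levels was not tested beyond these relations.

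The other genes did not pass against the endothelial list in MCA-948 and MCA-969. Igf1 had r = 0.81 in MCA-948 and 0.67 in MCA-969 (adjusted permutation p of 0.152 and 0.302, rho = 0.81 and 0.76), and Igfbp5 had r = 0.68 and 0.08 (adjusted permutation p of 0.302 and 0.965, rho = 0.62 and -0.26). Igfbp6 had r = -0.21 and 0.70 (adjusted permutation p of 0.944 and 0.302, rho = -0.14 and 0.76). For Igf1r, Igfbp2 and Igfbp4, r was between -0.29 and -0.03 in both lines. Against 12 macrophage genes 0 of 24 relations passed after adjustment and 2 had an unadjusted permutation p under 0.05, Igf1r (r = 0.67, rho = 0.76) and Igfbp5 (r = 0.75, rho = 0.74), both in MCA-969, with adjusted p of 0.302 and 0.152.

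**Figure D2:**
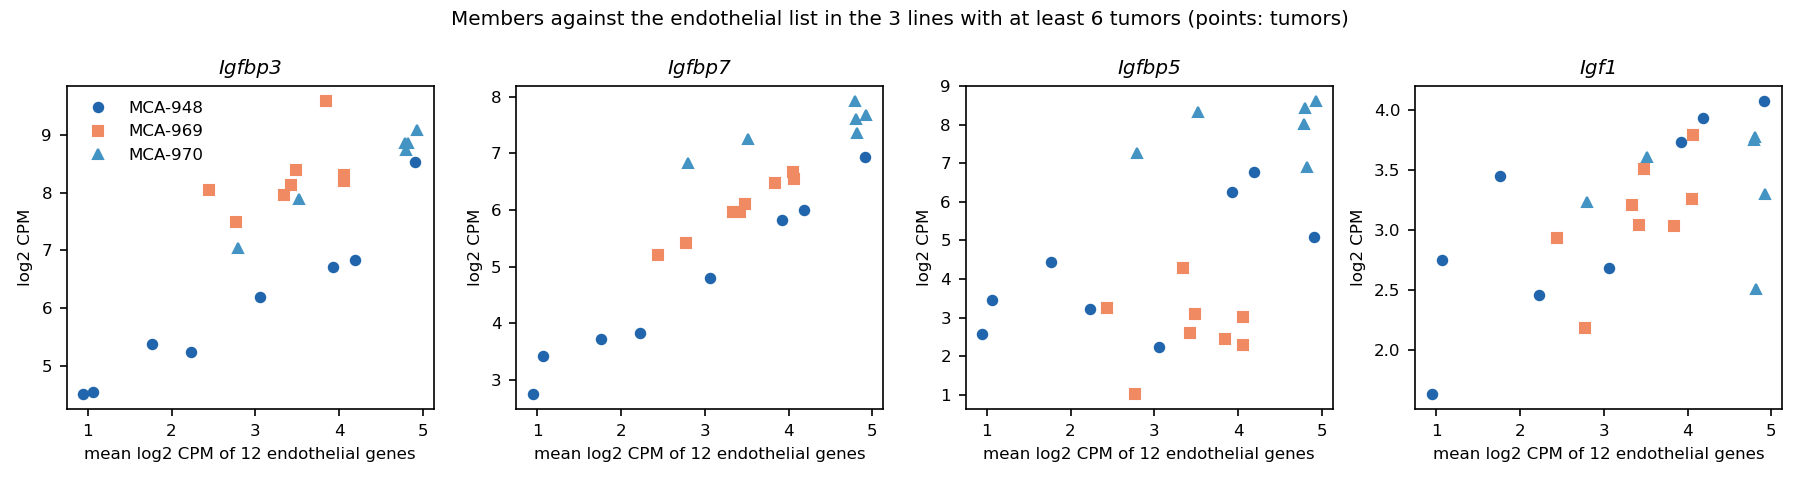
Igfbp3, Igfbp7, Igfbp5 and Igf1 (y axis, log2 CPM) against the mean log2 CPM of 12 endothelial genes (x axis) in the tumors of MCA-948 (circles), MCA-969 (squares) and MCA-970 (triangles); each point is 1 tumor. The Igfbp7 points of MCA-948 and MCA-969 fall close to a line (r = 0.99 in each), Igfbp3 does so in MCA-948 (r = 0.97), and Igfbp5 and Igf1 scatter more widely.

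The sample titles carry a letter, W or a, whose meaning the labels do not state. It was tested over the 26 tumors of the 4 lines that hold both letters, in a model with line and letter. The letter crosses these lines unevenly, with 1 W and 3 a tumors in MCA-943. The genes were taken up for differences between lines, with earlier results of these data known, so the test is not fully separate from their choice. Igfbp5 was the 1 gene of 8 that passed, beside 45 of 16557 genes in all (0.272%). The log2 difference of W from a was -1.62 ± 0.35 (edgeR quasi-likelihood test, adjusted p = 0.0422), and the mean was lower in W in 4 of 4 lines. The call stood close to the threshold, as 17 of 26 fits that each left out 1 tumor gave an adjusted p above 0.05 (range 0.017 to 0.12), and so did the fits with library series (0.079), without the filter on low counts (0.118) and without the 2 MCA-969 tumors of opposite label (0.101). It was kept without MCA-943 a-1D or a-1G, MCA-948 a-2D or a-2G, MCA-969 W-2G, a-1G or a-2D, or MCA-970 W-1D or a-1D, and lost without any 1 of the other 17. DESeq2 gave an adjusted p of 0.0015, and with the endothelial score as a covariate, chosen after seeing the data, edgeR gave -1.23 with an adjusted p of 0.38. Igf1 had a log2 difference of -0.70 ± 0.18, with a lower mean in W in 4 of 4 lines, and did not pass in edgeR (adjusted p = 0.161), whereas DESeq2 called it (adjusted p = 0.0338).

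In MCA-948, Igfbp5 was 4.68, 5.85, 9.29 and 10.9 CPM in W tumors and 21.7, 34.2, 76.3 and 109 CPM in a tumors, so that the letters did not overlap. In MCA-969 the means were 5.17 and 10.7 CPM and in MCA-970 199 and 334 CPM, with overlapping ranges, and in MCA-943 the 1 W tumor held 10.98 CPM against 12.1 to 48.3 CPM. The letter was also tested within each of these lines, with 1 W tumor in MCA-943. Over all genes, 83 were called in MCA-948, 27 in MCA-970 and 4 in MCA-969. MCA-948, the line with the most calls, is the one described here, so its calls are not those of a single planned test. Tested within MCA-948, 3 of the 8 genes passed, beside 0.501% of all genes. The log2 difference of W from a was -2.96 ± 0.54 for Igfbp5 (edgeR adjusted p = 0.0143), -1.36 ± 0.29 for Igf1 (adjusted p = 0.0364) and -2.09 ± 0.47 for Igfbp7 (adjusted p = 0.0471). Igf1 was 3.04, 5.44, 6.39 and 6.69 CPM in W and 10.8, 13.2, 15.2 and 16.8 CPM in a, again without overlap, whereas the a-2G tumor had Igfbp7 at 13.1 CPM, inside the W range of 6.66 to 27.9 CPM. In MCA-970, Igfbp7 was 114, 152 and 164 CPM in W and 195, 205 and 244 CPM in a, without overlap. In MCA-969 it overlapped, at 42.8 to 102 CPM in W and 37.0 to 93.6 CPM in a. A test of whether the letter acted differently in MCA-948, MCA-969 and MCA-970 called 20 genes in all (0.121%) and 0 of the 8. Their adjusted p ran from 0.198 for Igf1r to 0.889 for Igfbp4 (edgeR quasi-likelihood test), so a difference between lines was not shown. DESeq2 also called 0 of the 8.

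Endothelial genes and library series moved with the letter in MCA-948. All 12 endothelial genes were higher in a tumors, with sums of 59.0 to 561 CPM against 30.8 to 152 CPM in W. The mean of macrophage genes was higher in a for 11 of 12, although their sums overlapped, at 34.0 to 199 CPM in a and 54.3 to 160 CPM in W. It was higher in a for 12 of 12 in MCA-969 and for 0 of 12 in MCA-970. Endothelial genes were higher in a for 11 of 12 in MCA-970 and for 2 of 12 in MCA-969. In MCA-948, with the endothelial score as a covariate the differences were -2.46 for Igfbp5, -1.06 for Igf1 and -0.46 for Igfbp7, and 0 of 8 genes passed. All W tumors of MCA-948 were in series 3, as were a-1G and a-2D, which held Igfbp5 at 76.3 and 109 CPM, Igf1 at 13.2 and 15.2 CPM and Igfbp7 at 56.4 and 64.0 CPM, each above every W tumor. With series as a covariate Igfbp5 kept its call (-3.58, adjusted p = 0.00433), and Igf1 (adjusted p = 0.0825) and Igfbp7 (0.117) did not. Without W-2G, Igfbp5 in MCA-948 had an adjusted p of 0.0699. The Igf1 call was lost without any 1 of W-1D, W-2D, W-2G, a-1G, a-2D or a-R of MCA-948, at adjusted p of up to 0.126, and the Igfbp7 call in 17 of 26 such fits, at up to 0.189. Igfbp7 kept its call without MCA-943 W-2G, MCA-948 W-1G or a-2G, MCA-969 W-1D, W-2D, W-R, a-1G or a-R, or MCA-970 W-2D.

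**Figure D3:**
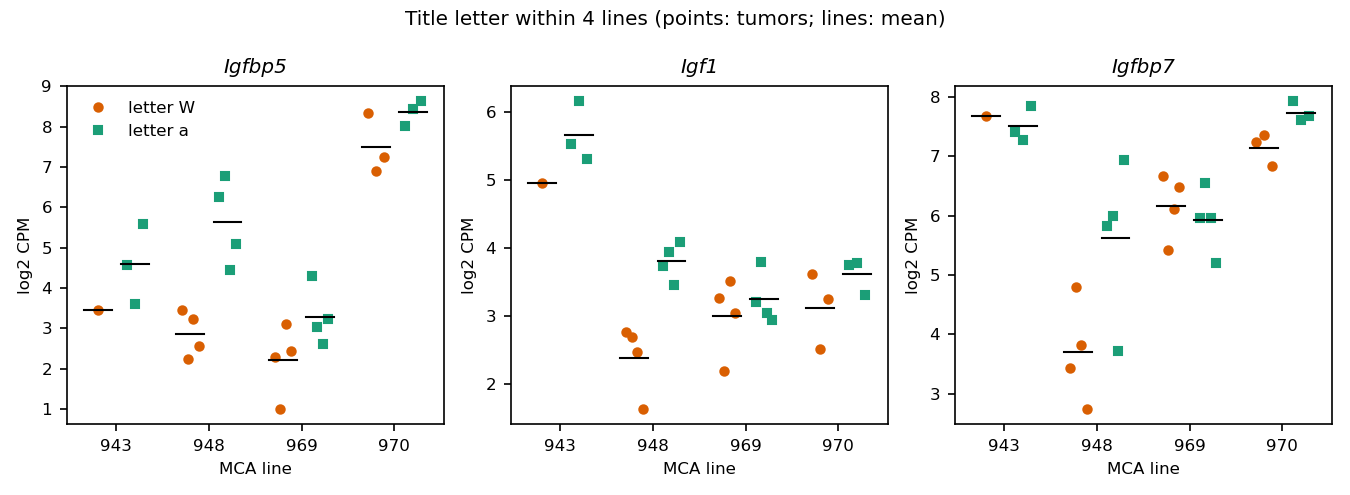
Igfbp5, Igf1 and Igfbp7 (y axis, log2 CPM) by the letter in the sample title, W (circles) or a (squares), in the 4 lines that hold both letters (x axis); points are tumors and the short lines are means, with 1 W tumor in MCA-943. In MCA-948 the letters do not overlap for Igfbp5 and Igf1 and overlap in 1 a tumor for Igfbp7, and in MCA-969 the ranges overlap for all 3 genes. In MCA-970 the letters overlap for Igfbp5 and Igf1 and do not overlap for Igfbp7.

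Around these genes, 49 other genes of the pathway were listed by role. Of them 43 passed the filter and 27 were called as differing among lines, beside the 58.0% of all genes given above, with a median largest log2 difference of 1.41 against 1.19. Counts of called genes by role, given below, stand beside the same share, and nothing is read from them. None of the 43 passed in all 6 comparisons between non-sensitive and sensitive lines, with or without the fold threshold, in edgeR, and DESeq2 with the threshold called 0 as well. The 6 genes that did not pass the filter were Ins1, Ins2, Insrr, Igfbp1, Igfals and Igfbpl1, so no other classical binding protein and no acid-labile subunit was measurable. Called genes were most often extreme in MCA-943, with the highest mean there for 9 and the lowest for 13 of the 27. The same count was not made over all called genes, so nothing is read from it.

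The second ligand, Igf2, a fetal growth factor, had the widest difference. It was 1.85 ± 0.601 CPM in MCA-943 (n = 4), 42.2 ± 25.7 in MCA-948 (n = 8), 63.5 ± 34.9 in MCA-969 (n = 8), 63.9 ± 27.3 in MCA-970 (n = 6) and 668 ± 197 in MCA-972 (n = 4), a largest log2 difference of 8.48 (edgeR F-test, adjusted p = 2.78e-13). MCA-972 thus held high Igf1, Igf2 and Igfbp2 together, while MCA-943 held high Igf1 and low Igf2 and Igfbp2. Igf2r, the scavenger receptor that clears IGF2, was the called receptor of 2 measured (log2 difference 1.52), lowest in MCA-948 at 248 ± 44.4 CPM and highest in MCA-972 at 711 ± 110 CPM.

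All 5 genes for proteases of binding proteins and their inhibitors were called, beside 58.0% of all genes tested. Pappa, which encodes the protease that cuts IGFBP4, was 0.995 ± 0.632 CPM in MCA-943 and 1.05 ± 0.51 CPM in MCA-948, 7.54 ± 3.29 and 7.34 ± 3.55 CPM in MCA-969 and MCA-970, and 25.99 ± 14.9 CPM in MCA-972 (largest log2 difference 4.75). Pappa2, its relative, which cuts IGFBP3 and IGFBP5, was highest in MCA-969 at 1.56 ± 0.615 CPM and lowest in MCA-948 at 0.0776 ± 0.0481 CPM (4.32). Of 3 receptors reported for binding proteins 2 were called, with the largest difference for Cd93, an endothelial receptor of IGFBP7, which was 89.0 ± 43.0 CPM in MCA-970 and 13.9 ± 10.6 CPM in MCA-943 (2.67).

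Of 9 adaptor genes 6 were called, beside 58.0% of all genes tested, the widest 2 being rare transcripts. Irs4 had no count in any MCA-943 tumor and 0.794 ± 0.248 CPM in MCA-970, at least 36.4-fold higher with 3 counts over the line as the floor. Irs3 was 0.579 ± 0.0813 CPM in MCA-943, from 79 counts, against 3 counts in MCA-972, a ratio of 29.1 with a 95% counting interval of 9.60 to 144. PI3K and AKT signalling had 5 of 15 genes called. Its median largest log2 difference was 0.78, the lowest of the roles, beside 1.19 over all genes tested. Within it Pik3cb, a catalytic subunit, differed most, from 27.9 ± 4.002 CPM in MCA-948 to 112 ± 5.49 CPM in MCA-972 (log2 difference 2.00).

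Growth hormone signalling, which drives Igf1 transcription in liver, had 4 of 5 genes called, beside 58.0% of all genes tested. All 4 had the highest mean in MCA-943 and the lowest in MCA-948. Stat5b was 49.2 ± 1.00 CPM in MCA-943, 22.5 ± 4.03 CPM in MCA-972, 6.65 ± 1.91 CPM in MCA-970, 6.35 ± 3.78 CPM in MCA-969 and 1.55 ± 0.802 CPM in MCA-948. Stat5a, its neighbour and close paralog, was 24.1 ± 1.37, 8.20 ± 0.855, 6.22 ± 1.26, 4.16 ± 2.20 and 1.01 ± 0.328 CPM in that order of lines, and their largest log2 differences were 4.98 and 4.58. MCA-943 and MCA-972, first and second for both, were also the 2 lines high in Igf1. A link between these levels and Igf1 was not tested. All 3 genes for IGF2 mRNA binding proteins were called and lowest in MCA-943, among them Igf2bp1, at 0.0312 ± 0.0318 CPM there from 4 counts against 2.71 ± 3.11 CPM in MCA-969, and Igf2bp3, at 3.61 ± 1.76 CPM against 49.4 ± 5.94 CPM in MCA-948.

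**Figure D4:**
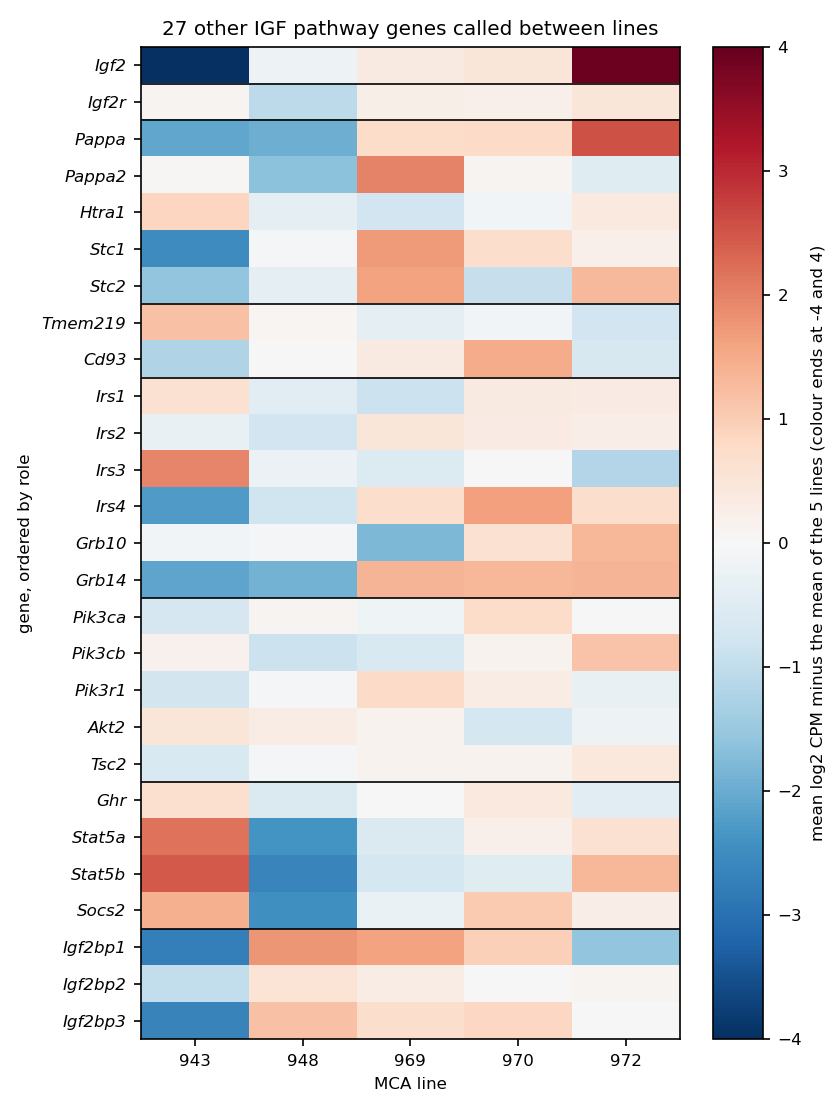
The 27 other IGF pathway genes called as differing among the 5 lines (x axis, line numbers). Rows are genes in order of role, with black lines between roles, and the colour is the mean log2 CPM of the line minus the mean of the 5 lines, ending at -4 and 4. Igf2 and Pappa are highest in MCA-972, Stat5a, Stat5b and Socs2 are highest in MCA-943 and lowest in MCA-948, and Igf2bp1 and Igf2bp3 are lowest in MCA-943.

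Over the 30 tumors, the genes most like each of the 8 in log2 CPM were named by Pearson's r, as a description in which the points share their lines. Ezr (0.93) and Zfp444 (0.93) were closest to Igf1r, Hacd4 and Pheta2 (both 0.91) to Igf1, and Rgs8 (0.94) and Tbx3os1 (0.92) to Igfbp2. Igfbp3 was most like Myzap (0.93) and Egfl7 (0.91), the latter an endothelial gene of the list used above, and Igfbp7 was most like Eng (0.95), the endothelial co-receptor endoglin, and Socs2 (0.93). Col27a1 (0.91) and Spaca1 (0.90) were closest to Igfbp5, Tbc1d15 and Nptxr (both 0.91) to Igfbp4, and Zdhhc1 (0.93) and Tmem198b (0.92) to Igfbp6. Among the 8 themselves the closest pairs were Igfbp4 with Igfbp6 (0.84) and Igfbp3 with Igfbp7 (0.68), and the most opposed was Igf1r with Igfbp5 (-0.82).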

How the data were processed

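Tumor RNA of 5 MCA-induced lines (30 tumors) was sequenced after bead depletion of CD45+ cells. The authors aligned reads with STAR 2.5.3a to GRCm38, removed duplicates by molecular identifier according to the column names, and deposited featureCounts counts per Ensembl gene. The submitters' processing notes give featureCounts 1.5.2 and also name Picard, and the strand setting of the counting is not given in the sources used here, so antisense overlap cannot be separated.

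Counts were used as deposited. Of 48440 genes 48058 were named through GENCODE mouse release 21, 16862 passed filterByExpr, and edgeR 4.0.16 (R 4.3.3, TMM, robust quasi-likelihood, prior count of 2 for log2 CPM) was fitted over all 30 tumors by line. The letter model used 26 tumors with 16557 genes. Thresholds were an adjusted p (Benjamini-Hochberg over all genes) under 0.05 and, between lines, a log2 difference of at least 1. DESeq2 1.42.0 was an alternative, and scripts were tested on simulated data. Replicates are separate tumors of 1 line, and p-values measure the spread between such grafts. No 2 tumors of a line agreed within sampling noise (83 pairs). The members and lists were chosen with earlier results of these data known. Genes named beyond the members were, per role, the called genes with the largest difference, up to 12, and the 2 genes most like each member. Lists for pericytes, adipocytes, skeletal muscle and keratinocytes summed to 39.5 to 228, 1.12 to 32.0, 3.25 to 16.9 and 2.63 to 16.6 CPM.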

Additional observations from a re-analysis of the deposited data

Results flagged for a closer look

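In 6 of 40 combinations of a gene and a line, 1 tumor lay far from the rest of its line, by the ratio of its gap to the nearest tumor over the whole range. The limits set on this ratio assume normally distributed values, and CPM was used without taking logs. The genes also share tumors, so the 6 are not set against a chance rate. Igfbp2 was 5.15 CPM in MCA-970 W-2D, where the next tumor had 2.48 CPM, and 26.7 CPM in MCA-972 a-R, where the next had 17.1 CPM. Igfbp3 was 371 CPM in MCA-948 a-R against 114 CPM in the next tumor, and 777 CPM in MCA-969 W-R against 336 CPM. Igfbp5 was 19.4 CPM in MCA-969 a-1D against 9.41 CPM. Igfbp7 was 93.3 CPM in MCA-972 a-R against 59.0 CPM. All 6 were the highest tumor of their line. MCA-948 a-R and MCA-972 a-R also had the highest endothelial sum of their lines, at 561 and 181 CPM, and the part of these genes in the values was not tested.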

How the results depend on the processing

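Between lines, the differences of the widest pair of each gene stayed within the spread of tumors under DESeq2 size factors, no filter on low counts, the replicate block, the fit without the 2 MCA-969 tumors of opposite label and DESeq2. With library series as a covariate they were 3.45 ± 0.66 for Igf1, 1.22 ± 0.10 for Igf1r and 7.28 ± 1.45 for Igfbp2. They were 0.32 ± 0.82 for Igfbp3, 6.28 ± 1.25 for Igfbp5 and 3.08 ± 0.35 for Igfbp6. With the endothelial score, an alternative chosen after seeing the data, they were 0.32 ± 0.28 for Igfbp3 and 3.22 ± 0.19 for Igfbp7. Leaving out 1 tumor gave 2.05 to 2.53 for Igf1, 1.55 to 1.66 for Igf1r, 9.76 to 10.44 for Igfbp2, 1.90 to 2.25 for Igfbp3, 0.82 to 1.01 for Igfbp4, 4.91 to 5.39 for Igfbp5, 2.43 to 2.70 for Igfbp6 and 2.11 to 2.79 for Igfbp7. Within a series the sign turned for Igf1 between MCA-948 and MCA-970 (0.39), Igfbp2 between MCA-969 and MCA-970 (-0.76) and Igfbp3 between MCA-943 and MCA-948 (0.54). Without the fold threshold 43 pathway genes were called, against 27, and 1 member passed all 6 comparisons. Other settings gave 26 to 28 pathway genes, and leaving out 1 tumor 26 to 29, with 0 members and 0 pathway genes in all 6.

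By title letter, 0 members were called without the filter, with library series, with the replicate block (Igfbp5 adjusted p = 0.106 by edgeR), with the endothelial score or without the 2 MCA-969 tumors of opposite label, 2 by DESeq2, and 0 to 1 when 1 tumor was left out. Over all genes 94 were called by DESeq2, 25 with the endothelial score and 30 to 57 when 1 tumor was left out, against 45. Within MCA-948, 1 member was called without the filter or with series, 0 with the endothelial score, and 0 (without W-2G) to 4 when 1 tumor was left out. The sign by letter turned for Igfbp2 with series (0.33) and for Igfbp3 (0.0411) and Igfbp7 (0.0841) with the endothelial score. The replicate block used the code after the title letter (such as 1D or R), whose meaning the labels do not state. Tumors of different lines with the same code did not deviate together (62 pairs, median correlation 0.01, -0.43 to 0.44), so the code was not taken to pair them. Under the block the Igfbp7 call within MCA-948 was also lost (adjusted p = 0.0662 by edgeR). Of the relations with marker lists, 4 were called with the summed CPM of a list in place of the score, against 3. The added relation was Igfbp3 with endothelial genes in MCA-970 (adjusted permutation p = 0.0354). The tumors of that line form 2 separate clusters on that sum, as given above, so no r is given and nothing is read from the call. Without the 2 tumors farthest from the median, where 6 or fewer tumors remained, 0 were called, though so few tumors could hardly give an adjusted p under 0.05. In MCA-970, with 4 tumors left, the r of Igfbp7 with endothelial genes was -0.0644 and that of Igfbp2 with Igfbp5 was 0.83. For the endothelial genes the tumors left out were W-R and W-1D, the cluster with low sums. The 4 left spanned only 568.4 to 616 CPM, so nothing is read from the r of Igfbp7. The causes were not tested.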

Other observations

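Among genes for proteases and inhibitors, Stc1 and Stc2, which encode inhibitors of PAPP-A, were both lowest in MCA-943 and highest in MCA-969, with log2 differences of 4.24 and 3.26, and Htra1, a protease of binding proteins, was highest in MCA-943 and lowest in MCA-969 (1.57). Grb14, an adaptor that restrains receptor signalling, was highest in MCA-972 and lowest in MCA-943 (3.52). Socs2, a feedback inhibitor of growth hormone signalling, was highest in MCA-943 and lowest in MCA-948 (3.63). These 5 genes were called among lines and are named here after their values were seen. Insr, the insulin receptor, was not called, with a largest log2 difference of 0.86. No pathway gene outside the 8 was called by title letter, the smallest adjusted p being 0.255 for Irs4.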
